A study of Mus musculus with 4 samples.

Results

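Collagens, laminins and integrins are the fibres and sheets of the extracellular matrix and the receptors that hold cells to it. Their genes were described here in hippocampal neurospheres of newborn mice that did or did not carry an FGF13A overexpression cassette. Genes were taken by symbol (Col with its type and chain numbers, Lama, Lamb or Lamc with a number, and Itga or Itgb, leaving out integrin-binding proteins named after them). They were further chosen by level, a normalized read count of 10 or more in 2 or more of the 4 libraries. The deposited table held 48178 genes, of which 82 had such a name and 64 of these reached the level: 34 collagen, 10 laminin and 20 integrin genes. At the level rule alone 15204 genes remained, and these were the genes tested. The rule used the level in these libraries, so 4 genes entered only through the control libraries (Col19a1, Col22a1, Col8a1 and Col25a1) and 2 only through the FGF13Aoe libraries (Col4a3 and Itgb7). These 6 could enter only by differing between groups, and 58 genes reached the level in both groups. Just inside the rule lay Lamb3 and Itgb4, with 12.1 and 13.0 in their second highest library. Just outside lay Itgae, Itga11 and Lamc3, with 8.46, 8.14 and 8.14.

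The libraries came from neural progenitor cells of the hippocampus of C57BL/6 mice at postnatal day 0. Cells of a mouse were plated into 2 wells and grown for 7 days as neurospheres, free-floating balls of progenitors and their progeny, with B27, FGF-2 at 20 ng/ml and EGF at 20 ng/ml. The genotype labels give hGFAPCre to both groups, a Cre recombinase driven by the human GFAP promoter, whose activity covers neural progenitors and astrocytes. The 2 control libraries had the genotype ROSA26FGF13A +/+, that is, no cassette. The 2 FGF13Aoe libraries had the genotype ROSA26FGF13A LSL/+, with the cassette on 1 ROSA26 allele, silent until Cre removes a stop signal before it. FGF13 is an intracellular fibroblast growth factor homologous factor that binds sodium channels and microtubules.

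Collagen chains wind in threes into a triple helix. Fibrillar types pack into fibres, type IV forms the net of basement membranes, and the fibril-associated types, called FACIT collagens, sit on the surface of other fibres. A laminin is a cross-shaped trimer of an alpha, a beta and a gamma chain, and laminins form the second net of a basement membrane. An integrin is an alpha and a beta chain across the cell membrane that binds such matrix outside and the actin skeleton inside. In the developing brain radial glia, the neural stem cells, hold by integrins to the laminin-rich basement membrane under the meninges, while fibrillar collagens are made mainly by meningeal and vascular cells.

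The labels were checked first. Fgf13 had normalized read counts of 772 and 769 in control against 5410 and 4447 in FGF13Aoe (log2 change 2.67 ± 0.14, SE, n = 2 per group, limma adjusted p = 0.00111). Prm1, a protamine gene chosen after its values were seen, had 1040 and 722 in control against 9.67 and 10.1 in FGF13Aoe, a difference that the labels do not account for, and whether the 2 groups carried the same Cre transgene was not tested. The Y-linked gene Ddx3y had 4.95 and 146 in control replicates 1 and 2 and 0 and 0 in FGF13Aoe, so RNA of male cells was mostly in control replicate 2, and its part in the results was not tested. Libraries held 9724413 to 14092685 reads assigned to genes. The labels do not say whether replicates of a group came from separate mice, so the spread behind each p-value is that of these libraries and may be technical. Control replicates differed by 0.43 log2 units (SD over all tested genes) and FGF13Aoe replicates by 0.59, and over the 64 genes by 0.62 and 0.78. In bulk RNA fewer cells of a type and less RNA per cell cannot be told apart.

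Cell type markers moved with the groups. The counts below stand beside 16.2% higher and 19.1% lower of all tested genes. Summed normalized counts of 11 neuron markers were 43246 and 33837 in control against 11931 and 14826 in FGF13Aoe, and 9 of the 11 fell. Sums of 10 astrocyte markers were 73912 and 52434 against 182617 and 201154, with 6 of 10 higher, and those of 12 oligodendrocyte lineage markers 24098 and 29883 against 54291 and 60246, with 7 of 12 higher. Of 10 neural stem and radial glia markers 6 rose and 1 fell, Nes, with sums of 71980 and 77886 against 63907 and 76704. The part of these markers in the results on matrix genes was not tested.

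Changes among the 64 matrix genes went in both directions at once. Of the 64 genes 15 rose in FGF13Aoe and 14 fell (limma adjusted p under 0.05), and 35 did not pass. Of all 15204 tested genes 16.2% rose and 19.1% fell, against 23.4% and 21.9% of the 64. In either direction that is 45.3% of the 64 genes, against 35.3% of all tested genes, and no test of that difference was made. The groups did not overlap in 45 of the 64 genes (70.3%; 20 above and 25 below), against 73.7% of all tested genes (36.2% above and 37.5% below). The median log2 change was -0.25 (range -4.17 to 2.80), against -0.0096 over all tested genes. By family the collagens had 11 higher and 10 lower, the laminins 1 and 3, and the integrins 3 and 1, with medians of -0.39, -0.65 and -0.0083. Among the 58 genes that reached the level in both groups 14 rose and 10 fell. Without control replicate 1 fewer of the 64 passed. The edgeR and DESeq2 tests on reads of 3 libraries also left out control replicate 1. Fewer passed there too, and these tests are not a check apart from that fit. With either control library left out most calls over all tested genes were lost too, so a call lost there does not by itself set a gene apart. The authors' deposited table calls 16 of the 64 higher and 17 lower, with background shares of 14.9% and 17.7%. All 29 genes called here are called there in the same direction, and Itga2b, Itga8, Itgav and Col23a1 are called there only.

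**Figure D1:**
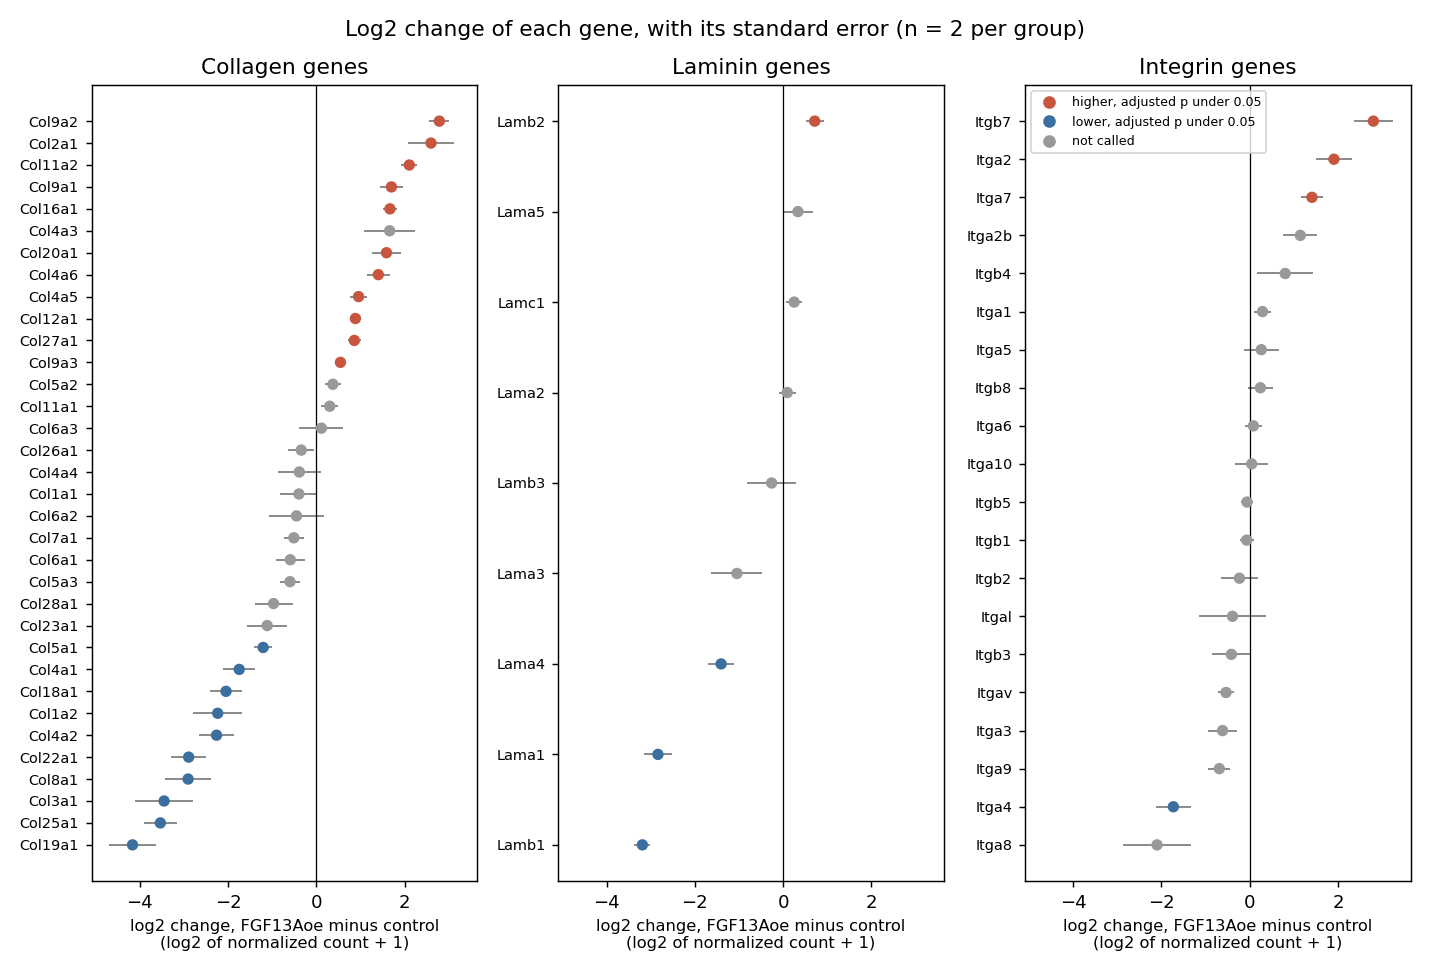
Log2 change of the collagen, laminin and integrin genes reported, FGF13Aoe minus control, on the scale of log2(normalized count + 1), with bars of 1 standard error (n = 2 per group). Collagens spread from -4.17 for Col19a1 to 2.79 for Col9a2, and 16 of the 20 integrins were not called. Of all tested genes 35.3% were called.

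The abundant gene pairs of the basement membrane collagens moved in opposite directions. Type IV chains are encoded in mammals by pairs of genes that lie head to head and are read away from a shared stretch between them. Col4a1 and Col4a2, whose chains make the type IV collagen of nearly all basement membranes, both fell. Col4a5 and Col4a6, X-linked genes whose chains join in a rarer type IV net, both rose. The stretches before their start sites are shown because the partners of each of these pairs moved together and the pairs moved apart. The remaining pair, Col4a3 and Col4a4, was scarce, and neither gene passed, as given below. They are RefSeq windows of 300 bases on GRCm38.p6, from 250 bases before to 50 bases after the start site. Capitals mark CCAAT, the GC box GGGCGG, the TATA box TATAAA and the TEAD-binding motif GGAATG, searched on both strands, so CCAAT may appear as ATTGG, the GC box as CCGCCC, the TATA box as TTTATA and the TEAD motif as CATTCC.
Col4a1, chr8:11312777-11313076, minus strand: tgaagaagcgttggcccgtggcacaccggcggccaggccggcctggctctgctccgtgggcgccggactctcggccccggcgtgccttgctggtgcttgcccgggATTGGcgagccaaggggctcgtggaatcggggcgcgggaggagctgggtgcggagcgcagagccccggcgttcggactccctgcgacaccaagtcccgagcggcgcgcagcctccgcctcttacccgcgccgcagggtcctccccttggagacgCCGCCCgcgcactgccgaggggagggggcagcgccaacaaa
Col4a2, chr8:11312555-11312854, plus strand: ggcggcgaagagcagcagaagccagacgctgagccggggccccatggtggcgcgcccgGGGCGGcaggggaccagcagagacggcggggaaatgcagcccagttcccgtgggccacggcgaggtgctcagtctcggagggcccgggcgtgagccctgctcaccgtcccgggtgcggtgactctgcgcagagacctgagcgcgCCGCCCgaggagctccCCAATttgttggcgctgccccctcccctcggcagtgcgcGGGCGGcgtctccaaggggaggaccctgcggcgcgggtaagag
Col4a5, chrX:141475169-141475468, plus strand: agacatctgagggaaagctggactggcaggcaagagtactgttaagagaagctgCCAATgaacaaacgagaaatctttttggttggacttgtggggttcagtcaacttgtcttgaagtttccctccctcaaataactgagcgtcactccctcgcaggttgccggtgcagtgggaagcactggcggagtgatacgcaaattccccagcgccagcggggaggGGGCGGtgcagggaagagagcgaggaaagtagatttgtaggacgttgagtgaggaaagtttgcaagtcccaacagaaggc
Col4a6, chrX:141474027-141474326, minus strand: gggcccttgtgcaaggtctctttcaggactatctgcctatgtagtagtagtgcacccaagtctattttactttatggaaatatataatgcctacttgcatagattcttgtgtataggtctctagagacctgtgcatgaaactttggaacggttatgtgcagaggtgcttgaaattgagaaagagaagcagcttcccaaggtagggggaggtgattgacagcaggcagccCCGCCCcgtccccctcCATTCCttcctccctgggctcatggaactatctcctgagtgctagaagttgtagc

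The annotated start sites of Col4a1 and Col4a2 lie 21 bases apart, and their windows share 78 bases. Those of Col4a5 and Col4a6 lie 1343 bases apart, and their windows share 0 bases. The Col4a1 and Col4a2 windows hold 74.0% and 73.7% G and C, and the Col4a5 and Col4a6 windows 52.7% and 48.3%. CCAAT occurs in the windows of Col4a1, Col4a2 and Col4a5, and in 37.4% of all 32851 windows of this length. The GC box occurs once in Col4a1, Col4a5 and Col4a6 and 3 times in Col4a2, and in 35.7% of all windows. Only the Col4a6 window of these 4 holds the TEAD motif, which 14.7% of all windows hold, and TATAAA is in 0 of the 4 and in 13.6% of all. Of the 64 genes 45 matched a window that could be used. In any of their windows 14 of these hold CCAAT, 28 the GC box, 2 TATAAA and 8 the TEAD motif. These counts are by gene and the shares above by single window, so they are not to be set side by side. A match is a run of letters, not a bound site.

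Col4a1 (ENSMUSG00000031502, GRCm38 chromosome 8, 11198423 to 11312826) had normalized counts of 1028 and 758 in control against 379 and 181 in FGF13Aoe. The log2 change of Col4a1 was -1.75 ± 0.36 (adjusted p = 0.0163). Col4a2 (ENSMUSG00000031503, chromosome 8, 11312805 to 11449287) had 699 and 387 in control against 145 and 80.0 in FGF13Aoe (log2 change -2.26 ± 0.39, adjusted p = 0.00958). For both partners each FGF13Aoe library lay below each control library, as in 37.5% of all tested genes, and FGF13Aoe replicate 2 was the lowest. Without control replicate 1 neither passed, at log2 changes of -1.53 and -1.84.

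Col4a5 (ENSMUSG00000031274, chromosome X, 141475385 to 141689234) had 1317 and 1756 in control against 3298 and 2646 in FGF13Aoe (log2 change 0.96 ± 0.19, adjusted p = 0.0141). Col4a6 (ENSMUSG00000031273, chromosome X, 141165403 to 141474076) had 404 and 670 in control against 1556 and 1225 in FGF13Aoe (1.41 ± 0.26, adjusted p = 0.0121). For both, control replicate 1 was the lowest library and FGF13Aoe replicate 1 the highest. The groups did not overlap, as in 73.7% of all tested genes. Without control replicate 1 neither passed, at log2 changes of 0.75 and 1.04. Xist, the RNA of the silenced X chromosome, had 18658 and 12206 in control against 30159 and 31301 in FGF13Aoe. Of 520 X-linked genes tested 67 rose and 121 fell, beside 16.2% and 19.1% of all tested genes. Their median log2 change was -0.06, and the part of X dosage in the rise of this pair was not tested.

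Col4a3 and Col4a4, the pair on chromosome 1 best known from the kidney filter, were scarce. Col4a3 had 8.92 and 3.25 in control against 15.7 and 24.3 in FGF13Aoe (log2 change 1.66 ± 0.58, adjusted p = 0.0723), and Col4a4 45.6 and 19.5 against 24.2 and 21.3 (-0.39 ± 0.48, adjusted p = 0.557). Neither passed, and Col4a4 overlapped between groups. Col8a1, a chain of a short network collagen of vessel walls and the eye, fell from 21.8 and 15.5 to 1.21 and 2.02, the latter from 3 reads in all. It entered only through the control libraries, so the level rule favoured its call. The ratio of control to FGF13Aoe reads was 11.1 (95% exact interval 3.54 to 56.0, counting error only), and the call was lost without control replicate 1 (log2 change -2.67).

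Divided by exonic length, so that chains can be set beside each other, type IV transcripts shifted further toward Col4a5 and Col4a6. In control replicate 2 this pair already held most of them. Col4a1 and Col4a2 together made up 49.1% and 31.5% of the summed type IV level per kilobase in control and 9.54% and 6.18% in FGF13Aoe. Col4a5 and Col4a6 made up 49.8% and 68.0% in control and 90.0% and 93.1% in FGF13Aoe. The ratio of Col4a5 to Col4a1 per kilobase was 1.42 and 2.57 in control against 9.66 and 16.2 in FGF13Aoe. The summed type IV level was 495 and 508 normalized counts per kilobase in control and 763 and 588 in FGF13Aoe. Within the pairs the ratio of Col4a1 to Col4a2 was 1.30 and 1.74 in control against 2.32 and 2.01 in FGF13Aoe, and that of Col4a5 to Col4a6 was 3.87 and 3.11 against 2.52 and 2.56. For the low pair the ratio of Col4a3 to Col4a4 was 0.21 and 0.18 against 0.69 and 1.22. With 2 libraries against 2 an exact permutation test of such a share or ratio cannot give a two-sided p below 0.333, so none is given.

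**Figure D2:**
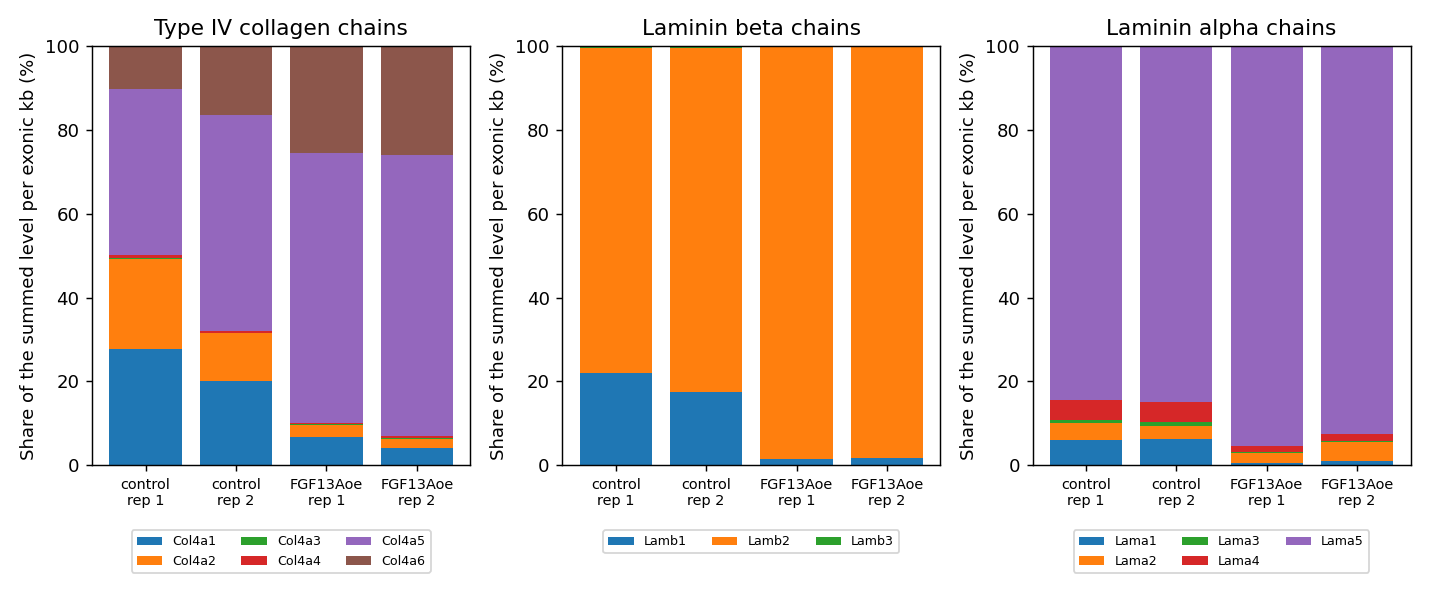
Share of each chain, in percent of the summed level per exonic kilobase, in each library, for type IV collagen, laminin beta and laminin alpha chains; bars are single libraries. Col4a1 and Col4a2 shrink from 49.1% and 31.5% to 9.54% and 6.18% in FGF13Aoe, and Lamb1 from 22.0% and 17.6% to 1.54% and 1.65%.

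The laminin beta chains changed in the same crossed way. Lamb1, the beta chain of the early embryonic laminins, fell, while Lamb2, the beta chain of synaptic, kidney and vessel laminins, had a small rise. Their windows are shown for comparison with the type IV pairs, in the same form and with the same motifs in capitals.
Lamb1, chr12:31265043-31265342, plus strand: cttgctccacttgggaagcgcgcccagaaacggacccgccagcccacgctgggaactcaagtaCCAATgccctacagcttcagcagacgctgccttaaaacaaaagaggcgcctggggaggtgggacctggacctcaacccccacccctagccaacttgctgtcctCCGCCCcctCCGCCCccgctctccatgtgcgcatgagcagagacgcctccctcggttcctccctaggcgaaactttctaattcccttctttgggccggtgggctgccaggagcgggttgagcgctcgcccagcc
Lamb2, chr9:108479612-108479911, plus strand: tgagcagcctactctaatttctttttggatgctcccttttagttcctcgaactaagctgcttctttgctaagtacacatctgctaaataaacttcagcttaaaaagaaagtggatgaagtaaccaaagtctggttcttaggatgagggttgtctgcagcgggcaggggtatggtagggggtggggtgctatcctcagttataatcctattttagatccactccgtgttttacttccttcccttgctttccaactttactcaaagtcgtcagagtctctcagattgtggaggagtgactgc

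The Lamb1 window holds 63.7% G and C, 1 CCAAT and 2 GC boxes. The Lamb2 window holds 44.0% G and C and 0 of the 4 motifs.

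Lamb1 (ENSMUSG00000002900, chromosome 12, 31265234 to 31329644) had normalized counts of 676 and 681 in control against 82.2 and 65.8 in FGF13Aoe. Its log2 change of -3.19 ± 0.18 (adjusted p = 0.00111) was the largest fall among the laminins, and replicates of each group lay close together. Lamb2 (ENSMUSG00000052911, chromosome 9, 108479736 to 108490530) had 1458 and 1943 in control against 3204 and 2397 in FGF13Aoe (0.72 ± 0.20, adjusted p = 0.0413). The Lamb2 call was lost without control replicate 1 (log2 change 0.51), control replicate 2 (0.93) or FGF13Aoe replicate 1 (0.51), while the Lamb1 call held without each library in turn. Lamb3, a skin laminin chain, did not exceed 13.8 in any library. Per kilobase, Lamb1 made up 22.0% and 17.6% of the summed beta chain level in control and 1.54% and 1.65% in FGF13Aoe, and Lamb2 77.6% and 81.9% against 98.1% and 98.1%. The ratio of Lamb2 to Lamb1 per kilobase thus went from 3.52 and 4.65 to 63.6 and 59.4.

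Among the laminin alpha chains 2 fell and none rose, beside 19.1% and 16.2% of all tested genes. Lama1, the alpha chain of the first embryonic basement membranes, had 114 and 159 in control against 16.9 and 19.2 in FGF13Aoe (log2 change -2.83 ± 0.31, adjusted p = 0.00296), a call that held without each library in turn. Lama4, the alpha chain of blood vessel laminin, had 111 and 149 in control against 56.8 and 40.5 in FGF13Aoe (-1.40 ± 0.30, adjusted p = 0.0177). Its call was lost without control replicate 1 (log2 change -1.61) and without control replicate 2 (-1.19). Lama5, the most abundant alpha chain here per kilobase, had 1842 and 2526 in control against 3835 and 1939 in FGF13Aoe, so FGF13Aoe replicate 2 lay inside the control range (0.34 ± 0.34, adjusted p = 0.461), and it passed without that library (0.83). Lama2, the alpha chain of muscle and glial basement membranes, had 121 and 128 against 134 and 132 (0.10 ± 0.20, adjusted p = 0.726). Lamc1, the gamma chain of most laminins, had 1650 and 1993 against 2495 and 1874 (0.25 ± 0.18, adjusted p = 0.311). Lama3, a chain of the skin laminin, reached at most 27.7 in any library and did not pass. Lama5 made up 84.3% and 85.0% of the alpha chain level per kilobase in control and 95.4% and 92.4% in FGF13Aoe, and Lama1 6.14% and 6.31% against 0.49% and 1.08%. Summed over all 10 laminin genes the level per kilobase was 702 and 895 in control against 1193 and 813 in FGF13Aoe, so the groups overlapped.

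Vascular and meningeal markers were read beside the basement membrane genes. Of all tested genes 16.2% rose and 19.1% fell, which stand beside the counts below. Of 10 endothelial markers 5 could be tested and none passed, with sums of 276 and 225 in control against 313 and 200 in FGF13Aoe, and Tek, Erg and Emcn stayed under 10 in every library. Of 10 pericyte and smooth muscle markers 8 were tested. Myh11 rose, Rgs5 and Vtn fell, and the sums were 2724 and 3599 against 2818 and 2885. Myh11 did not pass without any 1 of the 4 libraries (log2 changes 1.82 to 2.13), nor Vtn without control replicate 1 (-3.47). Of 12 fibroblast and meningeal markers 5 were tested. Among them Dcn reached the level only through the control libraries, so the level rule favoured its call. Dcn fell, from 36.7 and 17.1 to 1.21 and 1.01, the latter from 2 reads in all. Its ratio of control to FGF13Aoe reads was 23.5 (95% exact interval 6.22 to 199, counting error only). Without control replicate 1 Dcn did not pass (log2 change -3.10). The sums were 678 and 665 in control against 538 and 491 in FGF13Aoe, Twist2 was at 0 in all libraries, and Twist1, Slc6a13 and Osr1 stayed under 10. Of 9 ependymal and choroid plexus markers 6 were tested, 2 fell (Otx2 and Ccdc153), Tmem212 was at 0, and the sums were 2303 and 834 against 698 and 625. Without control replicate 2 neither of these passed (log2 changes -2.07 and -2.52). Of 8 Schwann and neural crest markers 6 were tested, 3 rose (Sox10, Erbb3 and Egr2) and 1 fell, and Foxd3 was at 0. Their sums were 780 and 1342 against 5159 and 4973. Sox10 is also among the oligodendrocyte lineage markers above, so these 2 lists are not separate. The part of these cell types in the results on matrix genes was not tested.

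The fibrillar collagens went both ways. Col3a1 and Col1a2, chains of the fibres of skin, vessels and meninges, fell together with Col5a1, which starts such fibres. Col2a1 and Col11a2, chains of the fibres of cartilage and the eye's vitreous, rose together with Col27a1, a fibrillar chain of cartilage. Of 10 fibrillar genes tested 3 rose and 3 fell, beside 16.2% and 19.1% of all tested genes. Their median log2 change was -0.05 (range -3.45 to 2.60).

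Col3a1 (ENSMUSG00000026043, chromosome 1, 45311538 to 45349706) had normalized counts of 264 and 132 in control against 31.4 and 8.10 in FGF13Aoe (log2 change -3.45 ± 0.67, adjusted p = 0.0135). Col1a2 had 123 and 53.7 in control against 24.2 and 11.1 in FGF13Aoe (-2.24 ± 0.55, adjusted p = 0.0273). In both genes replicate 1 lay well above replicate 2 in each group. The groups did not overlap, as in 73.7% of all tested genes. The partner chain Col1a1 had 137 and 61.8 in control against 61.6 and 78.9 in FGF13Aoe, so only control replicate 1 stood apart (-0.39 ± 0.42, adjusted p = 0.488). Without control replicate 1 Col3a1 and Col1a2 did not pass (log2 changes -2.95 and -1.65), nor did Col1a2 without FGF13Aoe replicate 2 (-1.71). Of the fibroblast and meningeal markers that could be tested only Dcn passed, and the marker sums were lower in both FGF13Aoe libraries, as given above. The part of such cells in these falls was not tested.

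Col5a1 (chromosome 2, 27886425 to 28039514) had 427 and 587 in control against 231 and 203 in FGF13Aoe (log2 change -1.20 ± 0.20, adjusted p = 0.0089), and without control replicate 2 it did not pass (-0.98). Its partner chains did not pass: Col5a2 had 830 and 1141 in control against 1300 and 1227 in FGF13Aoe (0.38 ± 0.18, adjusted p = 0.144), and Col5a3 514 and 788 against 465 and 381 (-0.60 ± 0.23, adjusted p = 0.0972). Col11a1, a chain that shares trimers with type V in many tissues, had 1831 and 1635 against 1783 and 2559 (0.30 ± 0.19, adjusted p = 0.26), with groups that overlapped, and passed without FGF13Aoe replicate 1 (0.56).

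Col2a1 (ENSMUSG00000022483, chromosome 15, 97975602 to 98004695) had 36.7 and 22.8 in control against 297 and 109 in FGF13Aoe (log2 change 2.60 ± 0.52, adjusted p = 0.0151). It did not pass without control replicate 1 (2.93) or without control replicate 2 (2.27). Col11a2 (ENSMUSG00000024330, chromosome 17, 34039437 to 34066685) had 111 and 92.7 in control against 433 and 448 in FGF13Aoe (2.11 ± 0.18, adjusted p = 0.00176), and its call held without each library. Col27a1 had 455 and 524 in control against 816 and 967 in FGF13Aoe (0.86 ± 0.15, adjusted p = 0.00998), a call lost without control replicate 1 (0.76) or 2 (0.96). Per kilobase, Col11a1, Col5a2 and Col5a3 together with Col5a1 remained the larger part of fibrillar transcripts, with Col11a1 alone at 30.6% and 24.9% in control and 25.8% and 35.0% in FGF13Aoe. Col2a1 went from 0.85% and 0.48% to 5.92% and 2.06%, and Col11a2 from 3.44% and 2.62% to 11.6% and 11.4%.

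Of the 9 FACIT and multiplexin genes tested 6 were higher and 3 lower, with a median log2 change of 0.89 (range -4.17 to 2.79). Of the 3 lower genes Col19a1 and Col22a1 entered only through the control libraries, so the level rule favoured their calls, and 35.3% of all tested genes were called. Col9a1, Col9a2 and Col9a3, whose products form the type IX trimer on the surface of type II fibres, all rose. Col16a1, Col12a1 and Col20a1 rose with them. Col18a1, the basement membrane multiplexin whose end fragment is endostatin, and the scarce chains Col19a1 and Col22a1 fell.

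Col9a2 (ENSMUSG00000028626, chromosome 4, 121039385 to 121055322) had normalized counts of 38.6 and 35.0 in control against 279 and 242 in FGF13Aoe (log2 change 2.79 ± 0.23, adjusted p = 0.00159). Col9a1 had 61.4 and 72.4 in control against 181 and 265 in FGF13Aoe (1.70 ± 0.26, adjusted p = 0.00735). Col9a3, the chain with the highest level per kilobase, had 1366 and 1210 in control against 1899 and 1858 in FGF13Aoe (0.55 ± 0.12, adjusted p = 0.0194). Of its exonic bases 6.07% overlap Tcfl5 on the opposite strand, and whether counting used strand is not stated. The 3 partners thus rose by unequal amounts, and in each gene the groups did not overlap, as in 73.7% of all tested genes. Per kilobase Col9a2 went from 3.29% and 3.33% of type IX transcripts to 14.6% and 12.8%, while Col9a3 still held 79.7% and 78.7% in FGF13Aoe. Col9a2 passed without each library, Col9a1 did not without control replicate 1 (log2 change 1.59), and Col9a3 did not without control replicate 1 (0.63) or 2 (0.46).

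Col16a1 (ENSMUSG00000040690, chromosome 4, 130047840 to 130099283), a FACIT chain of fibrils and basement membrane zones, had 892 and 1142 in control against 3334 and 3092 in FGF13Aoe (log2 change 1.67 ± 0.15, adjusted p = 0.00199). It was called without each library. Col12a1, a FACIT chain of tendon and other dense tissue, had 489 and 513 against 993 and 864 (0.89 ± 0.13, adjusted p = 0.00637), a call lost without control replicate 1 (0.85) or 2 (0.92). Col20a1 had 42.6 and 76.5 against 181 and 167 (1.59 ± 0.33, adjusted p = 0.016), a call lost without control replicate 1 (1.18).

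Col18a1 (ENSMUSG00000001435, chromosome 10, 77052178 to 77166548) had 1223 and 1625 in control against 495 and 234 in FGF13Aoe (log2 change -2.05 ± 0.36, adjusted p = 0.0103), lost without control replicate 2 (-1.84). Col19a1, a FACIT-like chain that brain interneurons make in the mouse, had 120 and 48.8 in control against 3.62 and 3.04 in FGF13Aoe (-4.17 ± 0.53, adjusted p = 0.00449). Col22a1, a chain of tissue junctions, had 44.6 and 56.1 against 4.83 and 7.09 (-2.89 ± 0.40, adjusted p = 0.00542). Among transmembrane collagens Col25a1, a neuronal collagen, had 60.4 and 63.5 against 4.83 and 4.05 (-3.54 ± 0.37, adjusted p = 0.00273). Col19a1, Col22a1 and Col25a1 were under 10 in both FGF13Aoe libraries, so their fall goes with the way they entered and is no support for a direction. By DESeq2 on reads of 3 libraries Col19a1 and Col22a1 did not pass (log2 changes -3.87 and -3.22). Neuron markers fell in the same libraries, as given above. Col23a1, another transmembrane chain, had 89.2 and 227 against 72.5 and 58.7 (-1.11 ± 0.46, adjusted p = 0.108), and without control replicate 1 it passed (-1.78).

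The beaded and anchoring filament collagens did not pass. Col6a1, Col6a2 and Col6a3, chains of the fine beaded filaments around many cells, and Col7a1, Col26a1 and Col28a1 had log2 changes from -0.97 to 0.12. In this list 0 of 6 were higher and 0 of 6 lower, beside 16.2% and 19.1% of all tested genes. Col6a1 had 181 and 197 in control against 174 and 90.1 in FGF13Aoe (-0.59 ± 0.33, adjusted p = 0.212). It passed without FGF13Aoe replicate 1 (-1.06), and Col28a1 without FGF13Aoe replicate 2 (-1.44). Of the collagen genes that missed the level rule, Col15a1, the multiplexin related to Col18a1, had 50.5 in control replicate 1 and 4.05 to 6.51 in the other 3 libraries.

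**Figure D3:**
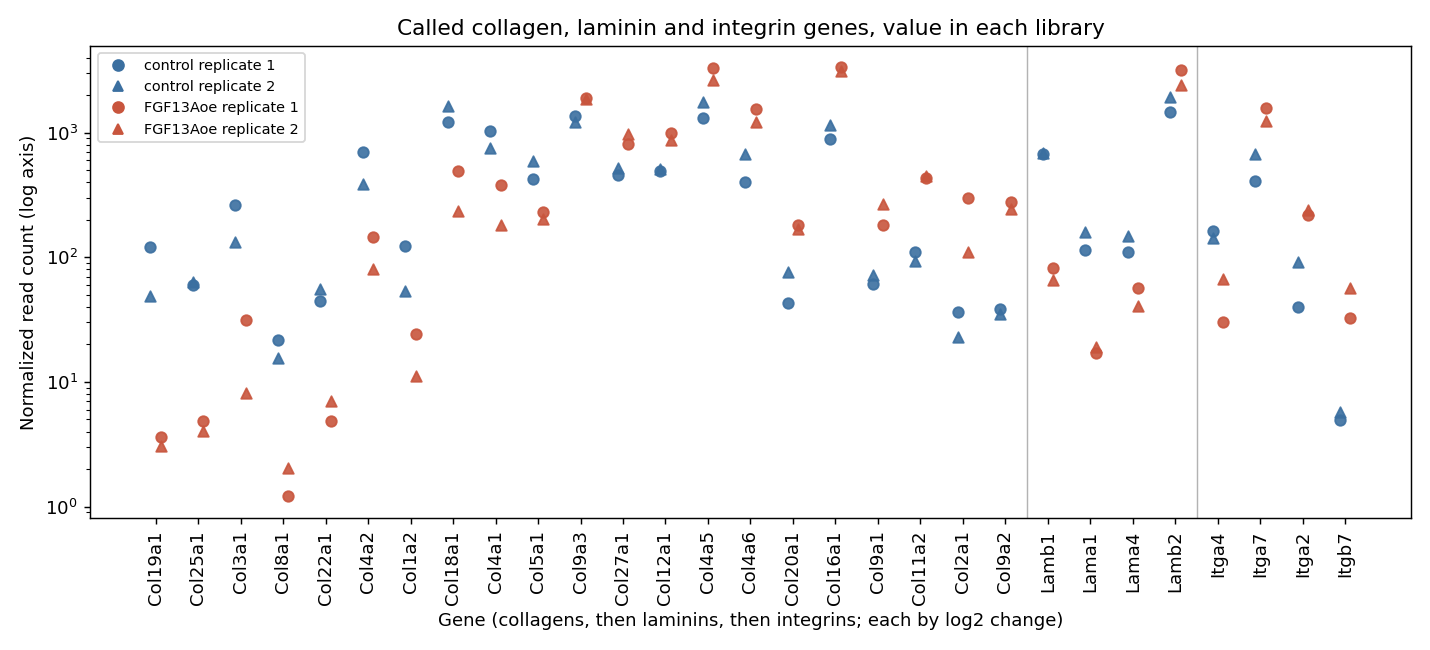
Normalized read count (log axis) of the 29 called genes in each library, control in blue and FGF13Aoe in red, circles for replicate 1 and triangles for replicate 2. The groups overlap in none of these 29 genes, which were chosen by their calls on the same values. Of all tested genes 73.7% do not overlap. Lamb1 shows 676 and 681 against 82.2 and 65.8.

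The integrin chains Itgb1, Itgb5, Itgb8, Itgav and Itga6 did not pass, and calls were made in Itga7, Itga2, Itga4 and Itgb7. Of 13 alpha chains tested 2 rose and 1 fell, with a median log2 change of 0.04. Of 7 beta chains 1 rose and none fell, with a median of -0.06. Over all tested genes 16.2% rose and 19.1% fell. Itgb1, the partner of most collagen and laminin receptors, had normalized read counts of 5398 and 6136 in control against 6080 and 4957 in FGF13Aoe (-0.07 ± 0.16, adjusted p = 0.761). Itgb5, a beta chain of vitronectin receptors, had 2026 and 2249 against 2199 and 1903 (-0.06 ± 0.13, adjusted p = 0.739). Itgb8, which with Itgav releases latent TGF beta in the brain, had 1840 and 2141 against 1724 and 3197 (0.24 ± 0.29, adjusted p = 0.542). In all 3 the groups overlapped. After median centring the log2 changes of Itgb1 and Itgb5 were 0.0012 and 0.0081, so no direction is given for them. Itgb1 and Itgb5 together held 90.8% and 90.9% of the beta chain level per kilobase in control and 91.6% and 84.5% in FGF13Aoe.

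Among the alpha chains Itga7, a laminin receptor chain best known from muscle, rose. Itga7 (ENSMUSG00000025348, chromosome 10, 128933818 to 128958282) had 409 and 668 in control against 1571 and 1233 in FGF13Aoe (log2 change 1.41 ± 0.26, adjusted p = 0.0113). Itga2, a collagen receptor chain, had 39.6 and 91.1 in control against 220 and 238 in FGF13Aoe (1.91 ± 0.40, adjusted p = 0.0175). In both genes control replicate 1 was the lowest library, and without it neither passed (log2 changes 1.06 and 1.32). Itga4, a fibronectin and VCAM-1 receptor chain, had 161 and 142 in control against 30.2 and 66.8 in FGF13Aoe (-1.73 ± 0.40, adjusted p = 0.0235). It did not pass without control replicate 1 (-1.64) or 2 (-1.82), and 8.04% of its exonic bases overlap Cerkl. Itgb7, a partner chain of Itga4 in lymphocytes, had 4.95 and 5.69 in control against 32.6 and 56.7 in FGF13Aoe (2.80 ± 0.45, adjusted p = 0.00783). It entered only through the FGF13Aoe libraries, so the level rule favoured its call, and on reads of 3 libraries it did not pass by edgeR (2.97) or DESeq2 (2.98).

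Other abundant alpha chains did not pass. Itgav, the alpha chain of vitronectin receptors, had 2457 and 3309 in control against 2198 and 1755 in FGF13Aoe (log2 change -0.54 ± 0.19, adjusted p = 0.0768). Itga6, the main laminin receptor chain of neural stem cells, had 1903 and 1922 against 1694 and 2425 (0.08 ± 0.19, adjusted p = 0.748), and Itga5, the fibronectin receptor chain, 573 and 608 against 1115 and 449 (0.26 ± 0.40, adjusted p = 0.637). Itga6 and Itga5 lay on both sides of control in the 2 FGF13Aoe libraries. Without FGF13Aoe replicate 1 Itga6, Itgav, Itga3, Itga8 and Itgb8 were called, and without FGF13Aoe replicate 2 Itga5, Itga2b and Itgb4, so the calls of these 8 in the limma test changed with the FGF13Aoe library left out. Of the 8, Itga2b, Itga8 and Itgav are called in the authors' deposited table with all 4 libraries. Itga8, an alpha chain of nephronectin receptors, had 84.2 and 93.6 in control against 47.1 and 8.10 in FGF13Aoe (-2.10 ± 0.76, adjusted p = 0.0797). Itga1, Itga9, Itga10 and Itgb3 did not pass, with log2 changes from -0.69 to 0.29, and 33.5% of the exonic bases of Itga10 overlap the predicted gene Gm42957. The leukocyte chains Itgal and Itgb2 stayed at or under 41.1 in every library and Itgam and Itgax under 10. Of 10 microglia markers 7 were tested, with sums of 475 and 310 against 233 and 186. None rose and 2 fell (C1qa and Csf1r), beside 16.2% and 19.1% of all tested genes. Neither passed without control replicate 1 (log2 changes -1.58 and -1.08) or without FGF13Aoe replicate 1 (-2.45 and -0.94). C1qa also did not pass without FGF13Aoe replicate 2 (-2.46), nor Csf1r without control replicate 2 (-1.30). Csf1r is not called in the authors' deposited table. Per kilobase Itga7 went from 7.18% and 9.81% of the alpha chain level in control to 20.7% and 19.6% in FGF13Aoe, and Itgav from 32.5% and 36.6% to 21.8% and 21.0%.

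**Figure D4:**
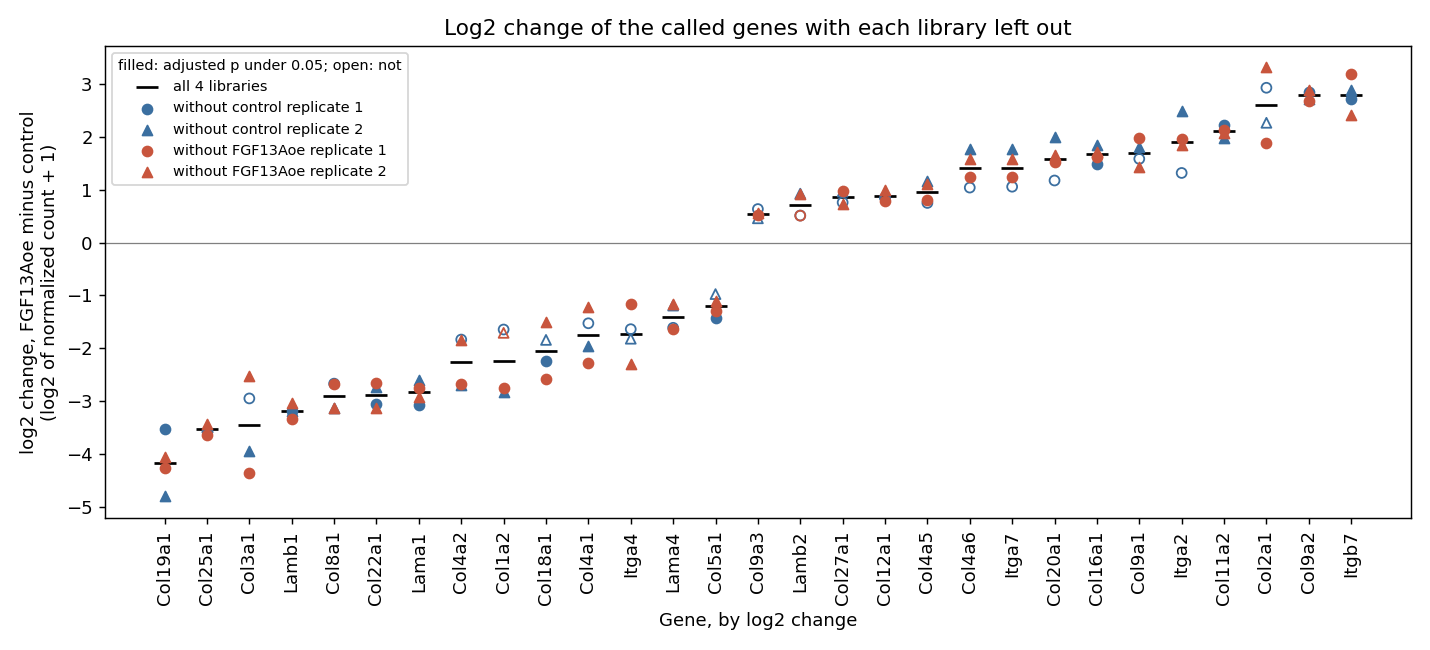
Log2 change of the 29 called genes, FGF13Aoe minus control on the scale of log2(normalized count + 1), with all 4 libraries (black bars) and without each library in turn; filled marks passed adjusted p under 0.05 and open marks did not. No gene crosses 0, and none could with a library left out, since the groups overlap in none of the 29. Lamb1 stays between -3.35 and -3.03.

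The 6 lists of other matrix and adhesion genes were read against the shares of all tested genes, 16.2% higher and 19.1% lower. Of 28 genes that make, cross-link and cut collagen 5 were higher and 3 lower, with a median log2 change of 0.08. P4ha3, a prolyl hydroxylase subunit needed for a stable helix, rose from 96.1 and 56.1 to 456 and 442 (log2 change 2.59 ± 0.28). Pcolce2, Loxl3, Plod1 and P3h3 rose by less (1.96, 0.93, 0.69 and 0.56); Plod1 is a lysyl hydroxylase and Loxl3 a cross-linking oxidase. Adamts3 and Adamts14, which cut the front propeptide from fibrillar procollagens, had log2 changes of -1.67 and -3.34. Tll1, which cuts the end propeptide, had 40.6 and 26.9 in control against 1.21 and 2.02 in FGF13Aoe, the latter from 3 reads in all. Its ratio of control to FGF13Aoe reads was 20.0 (95% exact interval 6.58 to 99.2, counting error only). Tll1 reached the level only through the control libraries, so the level rule favoured its call. P4ha3, Adamts3 and Tll1 were called without each library. The other calls were lost without control replicate 2, as were most calls over all tested genes.

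Of 24 other basement membrane and pericellular matrix genes 7 rose and 8 fell (16.2% and 19.1% of all tested genes), with a median log2 change of 0.00040. Pxdn, the peroxidase that makes the sulfilimine cross-links of type IV collagen, had 1270 and 1316 in control against 6950 and 8287 in FGF13Aoe (log2 change 2.55 ± 0.14, adjusted p = 0.00111). Smoc1, a calcium-binding basement membrane protein, had 1478 and 1552 against 5325 and 7149 (2.03 ± 0.17, adjusted p = 0.0017). Both were called without each library in turn. Agrn, Nid2, Sgcb and Sgce rose as well, and Fn1, which encodes fibronectin, had 1280 and 1385 against 11395 and 3130 (2.16 ± 0.56), with an FGF13Aoe replicate 1 far above replicate 2. Fbln2 had 2593 and 4552 against 1185 and 1277 (-1.48 ± 0.26), and Vtn, Thbs1, Thbs2, Spp1, Smoc2, Papln and Sgca also fell. Most of these calls were lost without control replicate 1 and most without control replicate 2, as were most calls over all tested genes. Fn1 was among them, at log2 changes of 2.11 and 2.22.

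Inside the cell, 8 of 28 integrin adhesion complex genes rose and 4 fell, beside 16.2% and 19.1% of all tested genes, with a median log2 change of 0.0017. Lims2, the adaptor PINCH2, had 85.2 and 129 in control against 802 and 1022 in FGF13Aoe (log2 change 3.10 ± 0.25, adjusted p = 0.00149). Parvb, the parvin that joins PINCH and integrin-linked kinase to actin, had 332 and 638 against 2408 and 1995 (2.25 ± 0.31), and Tns3, a tensin, 2069 and 2477 against 6255 and 6073 (1.44 ± 0.14). Tln2, a talin that switches integrins on, had 931 in both control libraries against 447 and 486 (adjusted p = 0.004). These 4 were called without each library in turn. Without control replicate 1 most of the other calls were lost, as were most calls over all tested genes.

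Matrix proteases and their inhibitors had 2 of 18 higher and 6 lower, with a median log2 change of -0.08. Over all tested genes the shares were 16.2% and 19.1%, which also stand beside the counts of receptors and of TGF beta genes that follow. The membrane-bound metalloproteinase genes Mmp24 and Mmp15 fell by 2.21 and 1.65 on the log2 scale, and the inhibitor gene Timp4 by 1.40, while Reck, an inhibitor tied to the membrane, rose by 1.56. These 4 were called without each library in turn. The other calls (Adamts1, Mmp17, Timp2 and Timp3) were lost without control replicate 1, as were most calls over all tested genes. Of 15 receptors other than integrins 3 rose (Cd9, Adgrg1 and Ddr1) and 3 fell (Sdc1, Sdc3 and Adgrg6), with a median of -0.03. The collagen receptor gene Ddr1 had 5252 and 6040 in control against 7960 and 8359 in FGF13Aoe (log2 change 0.53 ± 0.14), and did not pass without control replicate 1 (0.43) or 2 (0.64). The receptor Adgrg1, which binds type III collagen in the developing brain, had 5379 and 5585 against 8452 and 8929 (0.66 ± 0.13), also lost without control replicate 1 (0.64) or 2 (0.69). Of 17 TGF beta ligand and latency genes 2 rose (Ltbp3 and Smad7) and 3 fell (Lrrc32, Tgfbr2 and Ltbp2), with a median of -0.01. The calls of Ltbp2, Smad7 and Tgfbr2 were lost without control replicate 1 and again without control replicate 2. Most calls over all tested genes were lost in these fits too. Lrrc32, which holds latent TGF beta at the cell surface, had 158 and 143 against 12.1 and 13.2 (-3.47 ± 0.28). Ltbp2 had 28.7 and 17.1 against 2.42 and 0, 2 reads in all in FGF13Aoe. Its ratio of control to FGF13Aoe reads was 20.3 (95% exact interval 5.33 to 172, counting error only). Ltbp2 reached the level only through the control libraries, so the level rule favoured its call.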

How the data were processed

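RNA was taken with Trizol and sequenced from libraries of a NEBNext Ultra kit, per the labels. STAR, DESeq2 and the build mm10 come from the submitters' processing notes; their versions, the annotation release and strand use in counting are not stated there. A single table of 48178 genes was deposited. It holds a normalized read count signal for each library, gene counts divided by a size factor, beside the authors' log2 fold change with its error, Wald score and p-values. Values were whole multiples of a step in each library (100% of values within 1e-06), so counts of the authors could be recovered. Control replicate 1 has a step of 0.991, too close to 1 to accept, so count tests used 3 libraries, while read totals and ratios divide control replicate 1 by its step. No pair of replicates was a repeated deposit: chi-square per degree of freedom was 11.2 for control and 28.6 for FGF13Aoe.

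Sample titles gave the groups. Limma 3.58.1 (R 4.3.3, intensity trend) compared log2(normalized count + 1) of genes with 10 or more in 2 or more libraries, two-sided, with Benjamini-Hochberg adjustment over 15204 genes and a threshold of 0.05. The log2 changes understate the change of low genes. The test was checked on simulated data. Levels per kilobase divide by the union of exons in GENCODE M21 (GRCm38, the assembly mm10 names), which also gave positions and overlaps. Promoter windows are RefSeq's for GRCm38.p6. Windows on 1 chromosome were not used, and 19 of the 64 genes had none that could be. The genes described, the 8 chain lists, the 6 other lists and the 10 marker lists were chosen with earlier results of these data known, and no list was tested as a set. Some of these genes count in the totals but are not reported here by name. Values in every library are given for called genes whose higher group averaged 100 or more and for genes that averaged 500 or more over the 4 libraries, and of the other lists for up to 4 genes with the smallest p. Low called genes, partner chains and single examples beyond this were chosen after their values were seen. Alternatives were pseudocounts of 0.5 and 5, other filters, TMM scaling, median centring, no trend, the authors' p-values, a replicate block, a crossed block, each library left out, and count tests of 3 libraries by edgeR 4.0.16 and by DESeq2 1.42.0.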

Additional observations from a re-analysis of the deposited data

How the results depend on the processing

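No called gene changed direction under any alternative. The groups overlap in none of the 29 called genes, so leaving out a library could not turn a sign. Another pseudocount, filter, block or trend could not turn it either. Col16a1, Col9a2, Col11a2, Lama1, Lamb1 and Col25a1 passed in every alternative that tested them, Col25a1 being a gene that entered only through control. The count of genes of the 64 that rose ran from 4 to 19 with a library left out, and was 3 with edgeR and 7 with DESeq2 on reads of 3 libraries. The count that fell ran from 8 to 18, and was 9 with edgeR, 9 with DESeq2 and 9 among genes with at least 10 in all 4 libraries, a filter that drops genes low in FGF13Aoe. Over all tested genes the counts with a library left out ran from 551 to 2822 higher and from 867 to 3447 lower, with 537 and 1086 by edgeR and 722 and 968 by DESeq2. Fewer libraries entered these fits. The edgeR and DESeq2 fits left out control replicate 1, so they are not a check apart from the limma fit without it. Where a group was left with 1 library it was assumed to vary like the other group. Without the intensity trend Col9a3, Col4a1, Col1a2, Itga4 and Lamb2 did not pass.

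Replicate numbers were not taken to pair libraries: over genes, deviations of same-numbered libraries correlated at -0.103. With the replicate number as a block 2049 of all tested genes rose and 2647 fell, and of the 64 genes 14 rose and 14 fell, the call lost being Lamb2. With the numbers crossed, an alternative chosen after seeing the data, the counts were 2816 and 3257, and 17 and 18 of the 64.

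Medians of log2 change moved as follows. With at least 10 in all 4 libraries they were 0.30 for fibrillar, 1.59 for FACIT and multiplexin and -1.11 for transmembrane collagens, 0.10 for laminins and 0.0027 for metalloproteinases and inhibitors; fewer genes were tested. Laminins had -1.05 with a mean of at least 10, transmembrane collagens -1.95 with a pseudocount of 5, and metalloproteinases -0.015 after median centring. By edgeR and DESeq2 medians were 0.23 and 0.23 for network collagens, -2.78 and -2.80 for transmembrane collagens, -0.94 and -0.93 for laminins and -0.20 and -0.21 for metalloproteinases. With a library left out they ran from -0.98 to 0.21 for network collagens, from -1.17 to -0.13 for laminins and from -0.014 to 0.37 for collagen processing. They ran from -0.32 to 0.17 for other basement membrane genes, from -0.034 to 0.15 for adhesion complex genes, from -0.30 to -0.0097 for metalloproteinases and from -0.23 to 0.51 for TGF beta genes. The cause was not tested.

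Signs changed only in genes that had not passed, and in the called genes leaving out a library could not change them. By edgeR and DESeq2 log2 changes were 0.23 and 0.23 for Col4a4, 0.31 and 0.31 for Col6a2, 0.21 and 0.20 for Col1a1 and 0.017 and 0.016 for Itgb3. In the authors' deposited table Col6a3 has -0.045 and Itgal 0.0090, and after median centring Itgb1 had 0.0012 and Itgb5 0.0081. With a library left out log2 changes ran from -0.96 to 0.17 for Col1a1, -0.98 to 0.21 for Col4a4, -1.15 to 0.25 for Col6a2, -0.62 to 0.85 for Col6a3, -0.32 to 0.41 for Itga10, -0.39 to 0.92 for Itga5, -0.18 to 0.34 for Itga6 and -1.50 to 0.72 for Itgal. They ran from -0.22 to 0.079 for Itgb1, -0.69 to 0.23 for Itgb2, -0.027 to 1.64 for Itgb4, -0.17 to 0.043 for Itgb5, -0.20 to 0.69 for Itgb8, -0.15 to 0.83 for Lama5 and -0.70 to 0.19 for Lamb3. Depth limits Col8a1, Dcn, Tll1, Ltbp2, Vtn and Ccdc153, which had 2 or 3 reads in FGF13Aoe. They reached the level only through the control libraries, so the level rule favoured their calls.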
